A study of Mus musculus with 8 samples.

Results

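Of the 8 chromatin immunoprecipitation libraries of the series, all from mouse macrophages, 2 were set against each other: the Jmjd3 library and the RNA polymerase II (Pol II) library, both made 2 h after stimulation. The Jmjd3 list held 4398 positions and the Pol II list 57200, and all positions of both lists were used. The cells were primary bone marrow-derived macrophages from female Fvb mice aged 6 to 8 weeks. Those at 2 and 4 h had been given lipopolysaccharide, a bacterial cell wall component, together with interferon gamma, a cytokine that activates macrophages. Chromatin from 500000000 cells was used for Jmjd3 and from 100000000 for each other antibody and time, and every library had over 10000000 uniquely mapped tags. The labels do not say whether mice were pooled. Pol II lists of untreated cells (0 h, 55600 positions) and of cells at 4 h (57513 positions), and lists of the histone marks H3K4me3 and H3K27me3 in untreated cells and at 4 h, served for comparison. Each antibody and time was 1 library, so differences could not be set against replicate spread and no p-values are given.

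Jmjd3, encoded by Kdm6b, is a histone demethylase. Its substrate is H3K27me3, the mark that Polycomb complexes place at silent genes. Its gene is induced by inflammatory stimuli in macrophages. Pol II transcribes protein-coding genes. It accumulates just downstream of many start sites and spreads through gene bodies during elongation. H3K4me3 marks promoters, where Pol II starts.

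The value at each position is the authors' overlap count, read here as the number of overlapping sequence tags at a peak, since the headers name it without defining it. Jmjd3 counts were low, with a lowest count of 9, a median of 10 and a highest of 96, and 32.4% of positions were at the lowest count. Pol II counts at 2 h had a lowest of 10, a median of 17 and a highest of 402. The highest counts of Pol II at 4 h and of H3K27me3 at 4 h were both 401, and whether counts near 400 are held down by an upper bound was not tested. Positions within each list were more than 500 bp apart (519 bp at the closest for Jmjd3 and 501 bp for Pol II), so a Jmjd3 position could have at most 1 Pol II position within 250 bp. On several chromosomes the 0 h Pol II positions ended before those of the stimulated cells, and 116 Jmjd3 positions lay beyond the last of them. Brackets give 95% intervals for counting error only.

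Most Jmjd3 positions lay next to a Pol II position, while few Pol II positions lay next to Jmjd3. The median distance from Jmjd3 to the nearest Pol II position was 117 bp (112 to 124), and its quartiles were 42 and 376 bp. Of the 4398 Jmjd3 positions, 28.9% had Pol II within 50 bp, 66.8% (65.4 to 68.2) within 250 bp and 88.9% (87.9 to 89.8) within 1000 bp. From the other side, the median distance from Pol II to the nearest Jmjd3 position was 37935 bp, and 2939 of 57200 Pol II positions, 5.14% (4.96 to 5.32), had Jmjd3 within 250 bp. These 2939 pairs are the same from both sides. With the Pol II list cut to its 4398 tallest positions, those of count 115 or more, 35.7% (34.3 to 37.1) of each list was paired, and the median distance from Jmjd3 was 1465.5 bp.

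The nearest Pol II position was centred on the Jmjd3 position. In bins of 50 bp, 716 Jmjd3 positions had their nearest Pol II position in the central bin, 435 and 511 in the bins centred 50 bp to the lower and higher coordinate side, and 76 and 95 in those 250 bp away. The median signed offset within pairs was 6 bp. Strand is not in the lists, so the sides cannot be read as upstream and downstream. Within pairs, the median distance between Jmjd3 and Pol II was 62 bp. Distances between Pol II libraries were shorter: for the paired Pol II positions with another Pol II position within 250 bp, the median was 25 bp to untreated cells and 20 bp to cells at 4 h. Pol II positions with a Jmjd3 pair were tall, with a median count of 123, against 17 for those without. Over all Pol II positions at 2 h with such a neighbour it was 44 bp to untreated cells and 38 bp to cells at 4 h.

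**Figure D1:**
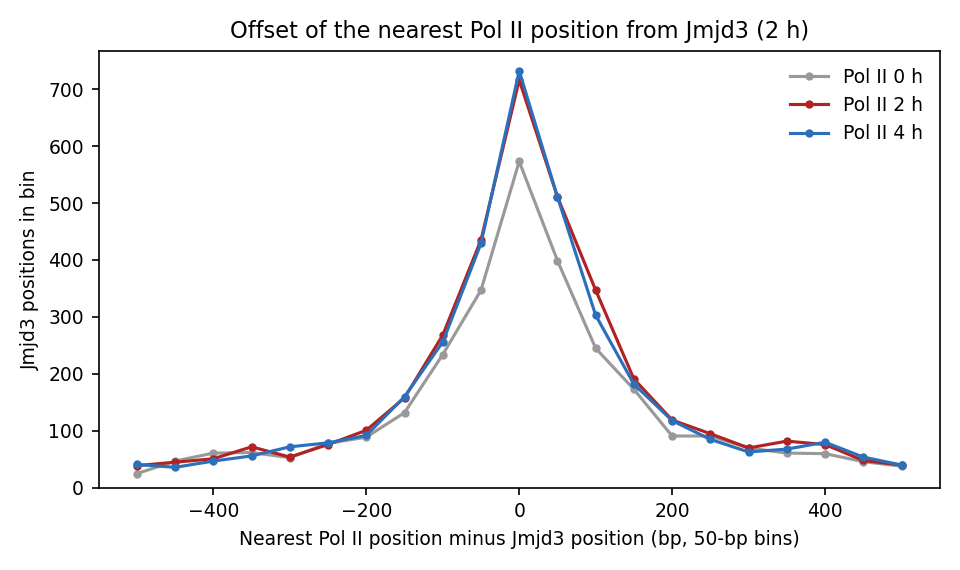
Number of the 4398 Jmjd3 positions (vertical axis) by the signed distance in bp of the nearest Pol II position (horizontal axis, 50-bp bins), for Pol II at 0, 2 and 4 h. All 3 curves peak at 0 bp, and the curves of 2 and 4 h lie close together, with 716 positions in the central bin at 2 h.

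The Pol II position beside Jmjd3 was usually the tallest of its neighbourhood. Of the 4020 Jmjd3 positions with Pol II within 2 kb, 2273 had at least 2 Pol II positions there. The nearest Pol II position was also the tallest within 2 kb for 3259 of the 4020, or 81.1% (79.8 to 82.3). The others among the 4020 had 1 Pol II position there, which is the tallest by definition. Where at least 2 Pol II positions lay within 2 kb, so that there was a choice, it was the tallest for 1512 of 2273, or 66.5% (64.5 to 68.5). Equal counts were taken as tallest, and no window held more than 5 Pol II positions. The share at places without Jmjd3 was not computed. Pol II counts were lower on both sides of Jmjd3. The median Pol II count was 123 within 250 bp, 52.5 and 52 at 1 kb on the lower and higher coordinate sides, 28 and 23.5 at 5 kb, and 24 and 22 at 10 kb. Positions per 100 Jmjd3 positions numbered 66.8 in the central 500 bp, 16.1 and 16.6 at 1 kb, and 10.03 and 9.39 at 10 kb.

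Jmjd3 was more frequent at taller Pol II positions. Sorted by count, the Pol II positions formed 18 classes, since the 5% quantiles fall on equal counts at the low end. Jmjd3 lay within 250 bp of 24 of the 6687 positions at the lowest count of 10, a share of 0.359% (0.230 to 0.534). The share was 0.709% (0.413 to 1.13) at count 15, 1.80% at counts 20 to 22 and 3.45% at 31 to 38. It was 11.3% (10.2 to 12.6) at 70 to 97, 18.8% (17.4 to 20.3) at 98 to 141 and 43.8% (41.9 to 45.6) in the highest class, counts 142 to 402. The share went up at 13 of the 17 steps between classes, and the 4 steps down were among counts of 13 to 25, where neighbouring intervals overlap. The 8462 positions with a count of 70 or more were 14.8% of the Pol II list and held 71.4% of the pairs. The 28820 positions with a count up to 17 were 50.4% of the list and held 5.78% of the pairs.

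**Figure D2:**
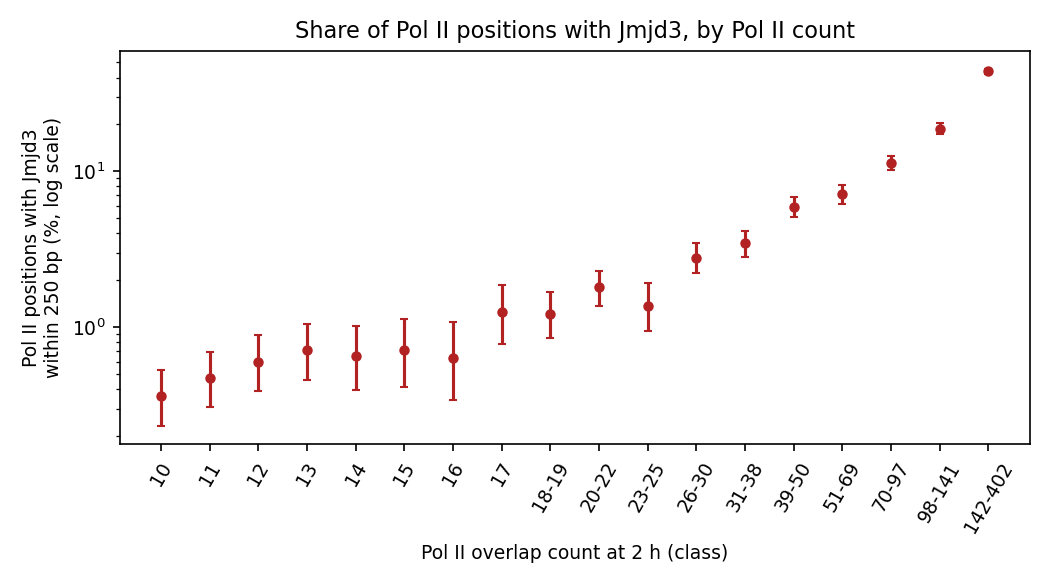
Share of Pol II positions with Jmjd3 within 250 bp (vertical axis, percent on a log scale) in 18 classes of Pol II overlap count at 2 h (horizontal axis); points are shares and bars exact 95% intervals. The share runs from 0.359% at a count of 10 to 43.8% at 142 to 402.

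The highest class was not uniform. Jmjd3 was within 250 bp of 34.0% (31.8 to 36.2) of the 1853 positions with counts of 142 to 199 and of 56.7% (52.8 to 60.6) of the 642 at 200 to 249. It was at 67.1% (60.6 to 73.2) of the 225 at 250 to 299, 74.7% (64.3 to 83.4) of the 87 at 300 to 347 and 83.0% (69.2 to 92.4) of the 47 at 350 to 402. Within 1 kb, 45 of those 47 positions had Jmjd3. The Jmjd3 count at these pairs was higher as well: its median was 11 beside Pol II counts of 142 to 199, 15 beside 250 to 299 and 26 beside 350 to 402.

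The 10 tallest Pol II positions, taken as 1 per 20 kb, had counts of 387 to 402. Each had Jmjd3 within 500 bp, 9 of them within 250 bp, with Jmjd3 counts of 20 to 64. The tallest, position 34809902 on chromosome 17 (count 402; all coordinates are on mm8), had Jmjd3 of count 34 at 121 bp, among 9 Jmjd3 positions within 20 kb. Position 101941312 on chromosome 14 (count 400) had Jmjd3 of count 20 at 222 bp, with 11 Jmjd3 positions within 20 kb. Position 27042359 on chromosome 12 (count 398) had Jmjd3 of count 45 at 156 bp, and 17 within 20 kb. The exception to 250 bp was position 10698566 on chromosome 16 (count 392), whose Jmjd3 position of count 35 was 474 bp away. All 10 were in an H3K4me3 cluster at 4 h and 9 in one of untreated cells, 7 had Pol II of untreated cells within 250 bp, and 1 had H3K27me3 listed at either time.

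Some tall Pol II positions had no Jmjd3 nearby. The tallest without Jmjd3 within 20 kb was position 96324938 on chromosome 3, with a Pol II count of 381 and the nearest Jmjd3 position 23.6 kb away. Next came a count of 330 at 87259522 of chromosome 11, 330 at 23562713 and 318 at 21725272 of chromosome 13, and 327 at 88517757 of chromosome 9, with Jmjd3 20.3 to 223 kb away. All 5 had Pol II within 250 bp in untreated cells and at 4 h, 3 of the 5 were in an H3K4me3 cluster at 4 h, and none had H3K27me3. Among all 1605 positions of the highest class without Jmjd3 within 250 bp, 84.2% (82.3 to 85.9) had Pol II in untreated cells and 93.8% at 4 h. The 1249 positions of that class with Jmjd3 were close to this, at 86.5% (84.4 to 88.3) in untreated cells and 97.0% at 4 h. Of the same 1605, 90.3% were in an H3K4me3 cluster at 4 h and 3.86% had H3K27me3 of either time.

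The tallest Jmjd3 positions had partners over a wide range of Pol II counts. The 10 tallest, taken as 1 per 20 kb, had Jmjd3 counts of 56 to 96, and their nearest Pol II positions had counts of 48 to 394 with a median of 82. The tallest, position 146565410 on chromosome 5 (Jmjd3 count 96), lay 15 bp from a Pol II position of count 66. Position 69864537 on chromosome 4 (85) coincided to the base with one of count 98, and position 75723144 on chromosome 12 (63) lay 1 bp from one of count 112. Only position 34871225 on chromosome 17 (Jmjd3 count 64, Pol II count 394 at 4 bp) was among the 10 tallest of both lists. H3K27me3 of at least 1 time was listed at 9 of the 10, against 1 of the 10 tallest Pol II positions. Of the 10, 3 lay in a single locus of chromosome 11, between 3022273 and 3099135, and 5 were at a peak of all 7 other lists. Among the 10 tallest not at a peak of all 7, a set chosen after the values were seen, the median partner count was 177.5, 5 partners were in the highest Pol II class, against 2 of the first 10, and 7 had H3K27me3.

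Over all pairs, the 2 counts were weakly related. Spearman's rank correlation between Jmjd3 and Pol II count was 0.29 over the 2939 pairs, given as a description because positions of 1 library are not replicates. The points share the cell type, the time and the mapping of the same stretches of genome. By bands of Jmjd3 count, the median Pol II count at pairs was 95 at a Jmjd3 count of 9, 104 at 10, 136 at 11 to 13, 181 at 14 to 19 and 210.5 at 20 to 29. It was then 53 at 30 to 49 and 69 at 50 to 96, below the lower bands. Part of this turn went with the 118 Jmjd3 positions at which all 7 other lists had a peak. Without them the median was 223 (205 to 242) at 20 to 29 and 267 (107 to 309) at 30 to 49. It stayed at 69 (48 to 394) at 50 to 96, from 6 pairs. At 30 to 49, 20 of the 57 remaining pairs had a Pol II count under 100, against 26 of 163 at 20 to 29. The low median at 30 to 49 was thus not seen without the 118, but its interval is wide, and the one at 50 to 96 remained. The share of Jmjd3 positions with a Pol II pair was 56.2% (53.6 to 58.8) at the lowest count, 71.6% (68.9 to 74.2) at 11 to 13, 81.25% (75.5 to 86.1) at 20 to 29, 82.4% (74.6 to 88.6) at 30 to 49 and 80% (56.3 to 94.3) at 50 to 96. The 118 shared positions are paired by definition. Without them the share was 79.5% (73.3 to 84.8) at 20 to 29, 72.2% (60.9 to 81.7) at 30 to 49 and 60% (26.2 to 87.8) of 10 positions at 50 to 96, with overlapping intervals. The median distance to Pol II was 185.5 bp at a count of 9, 91 bp at 14 to 19 and 53 bp at 30 to 96. Without the 118 it was 188.5 bp at 9, 94 bp at 14 to 19, 73 bp at 20 to 29 and 81 bp at 30 to 96.

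Whether H3K27me3 was listed at the same place separated these tall Jmjd3 positions. H3K27me3 of untreated cells or of cells at 4 h lay within 250 bp of 489 Jmjd3 positions, 11.1% (10.2 to 12.1). It lay at 6.66% (5.42 to 8.08) of those at the lowest count and at 63.4% (55.1 to 71.3) of those at 30 to 96, 92 positions. Of these 92, 56 were at a peak of all 7 other lists and so had H3K27me3 by definition. Among the 89 other positions at 30 to 96, 31.5% had H3K27me3 in untreated cells and 28.1% at 4 h. At the lowest count, these shares were 4.24% and 4.31% without the positions in all 7. At the pairs with H3K27me3, the median Pol II count stayed low in each band, at 63 (42 to 84) for a Jmjd3 count of 9, 43.5 (26 to 55) for 11 to 13, 28.5 (21 to 50) for 20 to 29 and 42 (37 to 51) for 30 to 96. At the pairs without it, the median was 97 (90 to 104) at 9, 112 (103 to 121) at 10, 142 (135 to 150) at 11 to 13, 191 (182 to 202) at 14 to 19, 231.5 (219 to 254) at 20 to 29 and 311 (278 to 365) at 30 to 96. In the last band, 8.86% (3.64 to 17.4) of the 79 pairs with H3K27me3 had a Pol II count of 142 or more, against 85% (70.2 to 94.3) of the 40 without it. The largest locus, on chromosome 11 and described below, held 55 pairs with a median Jmjd3 count of 39 and a median Pol II count of 31. Without that locus, 279 of the 326 pairs with H3K27me3 remained. Its pairs are neighbours and not independent, and this band was not computed without them.

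**Figure D3:**
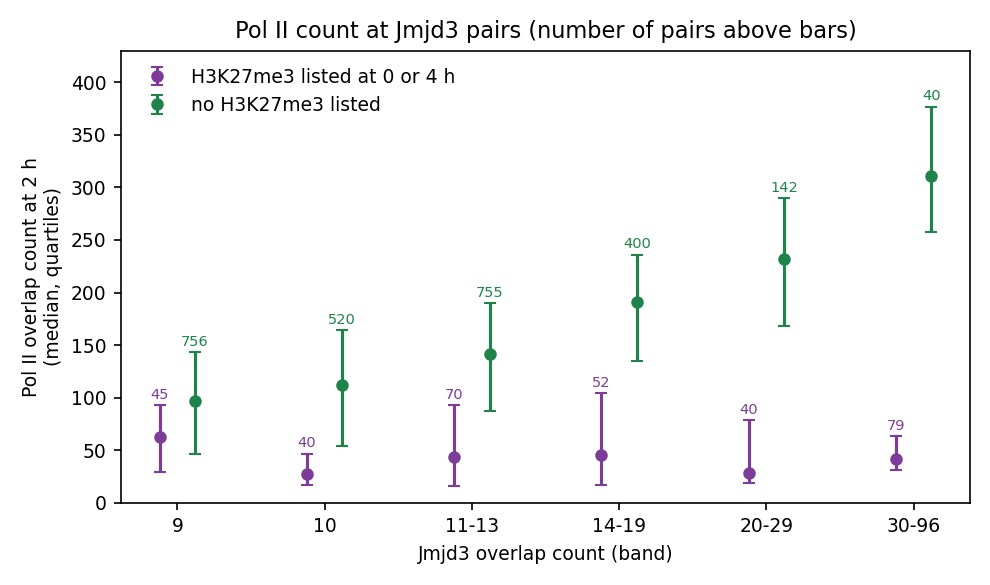
Pol II overlap count at 2 h (vertical axis) at pairs within 250 bp, by band of Jmjd3 overlap count (horizontal axis), for Jmjd3 positions with H3K27me3 listed at 0 or 4 h and for those without. Points are medians, bars run from the lower to the upper quartile and the numbers are pairs. The 55 pairs of the largest locus, on chromosome 11, are included. With H3K27me3 the medians lie between 27.5 and 63, and without it between 97 and 311.

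The rank correlation followed the same split. It was 0.06 over the 326 pairs with H3K27me3 and 0.44 over the 2613 without. Over the pairs without H3K27me3 it was above 0 on each of 20 chromosomes, with a median of 0.42, a highest value of 0.59 on chromosome 19 and a lowest of 0.22 on chromosome X, where there were 10 pairs. Over all pairs it was above 0 on 19 of 20 chromosomes, with the lowest values on chromosome X (-0.04, 40 pairs) and chromosome 11 (0.04, 351 pairs). Inside H3K4me3 clusters at 4 h it was 0.28 over 2695 pairs, and outside them -0.03 over 244 pairs, whose median Pol II count was 24.

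A single locus on chromosome 11 weighed on these values. Joining Jmjd3 positions under 5 kb apart gave 3434 loci, of which 2890 held 1 position. The largest ran from 3022273 to 3099135 on chromosome 11, a span of 76.9 kb with 66 Jmjd3 positions, 70 Pol II positions at 2 h, 66 Pol II positions in untreated cells, 61 H3K27me3 positions in untreated cells and 60 at 4 h. Its 55 pairs had a median Jmjd3 count of 39 and a median Pol II count of 31, and within it the rank correlation was 0.77. Leaving the locus out, the rank correlation was 0.35 over the remaining 2884 pairs and 0.50 over the remaining 296 on chromosome 11. Over the remaining 279 pairs with H3K27me3 it was 0.10. Leaving out the 118 Jmjd3 positions at which all 7 other lists had a peak, the rank correlation was 0.36. Those 118 had a median Jmjd3 count of 29, against 10 for the others, and a median Pol II count of 41, against 127 at the other pairs. That 7 lists of different antibodies and times share these places is a measured overlap, and its part in the result was not tested.

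The other loci with most Jmjd3 positions included some with and some without H3K27me3. A locus from 37885201 to 37909781 on chromosome 7 held 16 Jmjd3 positions (tallest 49), 19 Pol II positions at 2 h (tallest 231) and 16 in untreated cells, and 13 H3K27me3 positions in untreated cells. A locus from 165331136 to 165352805 on chromosome X held 14 Jmjd3 positions (tallest 56), 17 Pol II positions at 2 h (tallest 261) and 13 H3K27me3 positions in untreated cells. It lay beyond the end of the 0 h Pol II list. On chromosome 12, 27028372 to 27045394 held 14 Jmjd3 positions (tallest 45) and 13 Pol II positions at 2 h (tallest 398), against 2 in untreated cells (tallest 10), with no H3K27me3. On chromosome 11, 83343383 to 83359869 held 11 Jmjd3 positions (tallest 30) and 13 Pol II positions at 2 h (tallest 387), with none in untreated cells and no H3K27me3. A locus on chromosome 14, from 101932829 to 101945577, also held 11 Jmjd3 positions, with 10 Pol II positions at 2 h (tallest 400) and 12 in untreated cells (tallest 118).

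Within the same band of Pol II count, positions with Jmjd3 carried more of the promoter mark than those without. The bands are wide, so the 2 kinds of position were not matched for Pol II count inside them. Between 142 and 402, the share with Jmjd3 itself ran from 34.0% at counts of 142 to 199 to 83.0% at 350 to 402. In an H3K4me3 cluster at 4 h lay 50.6% (42.8 to 58.3) of the 170 Pol II positions with Jmjd3 and 14.9% (14.5 to 15.3) of the 28650 without it at Pol II counts of 10 to 17. At counts of 39 to 69 these shares were 88.7% (84.9 to 91.7) with Jmjd3 and 65.2% (63.9 to 66.5) without. At 142 to 402 they were 98.3% (97.4 to 99.0) with Jmjd3 and 90.3% (88.8 to 91.7) without. In each of these bands the intervals did not overlap, but they cover counting error only and neighbouring positions are not independent. At a single Pol II count of 10, the shares were 54.2% (32.8 to 74.4) with Jmjd3 and 11.4% (10.6 to 12.1) without. At a count of 15 they were 29.4% (10.3 to 56.0) with Jmjd3 and 18.6% (17.1 to 20.2) without, with overlapping intervals.

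H3K27me3 was listed more often at positions with Jmjd3 at low Pol II counts, and the shares were close at the highest. H3K27me3 of either time was within 250 bp of 35.3% (28.1 to 43.0) of positions with Jmjd3 and 2.46% (2.28 to 2.65) of those without at Pol II counts of 10 to 17. At 39 to 69 it was at 20.4% (16.4 to 24.97) with Jmjd3 and 4.73% (4.17 to 5.34) without. At 70 to 141 it was at 5.65% (4.20 to 7.43) with Jmjd3 and 3.61% (3.10 to 4.18) without. At 142 to 402 it was at 3.20% (2.30 to 4.34) with Jmjd3 and 3.86% (2.97 to 4.92) without. Without the Jmjd3 positions that all 7 other lists share, the share with Jmjd3 at 70 to 141 was 3.03% (1.97 to 4.44), no higher than without Jmjd3. At the lower bands the shares with Jmjd3 were then 31.25% (24.2 to 39.0) at 10 to 17 and 12.5% (9.09 to 16.5) at 39 to 69. Outside the large chromosome 11 locus these 2 shares were 34.9% (27.7 to 42.7) and 17.5% (13.7 to 21.9).

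**Figure D4:**
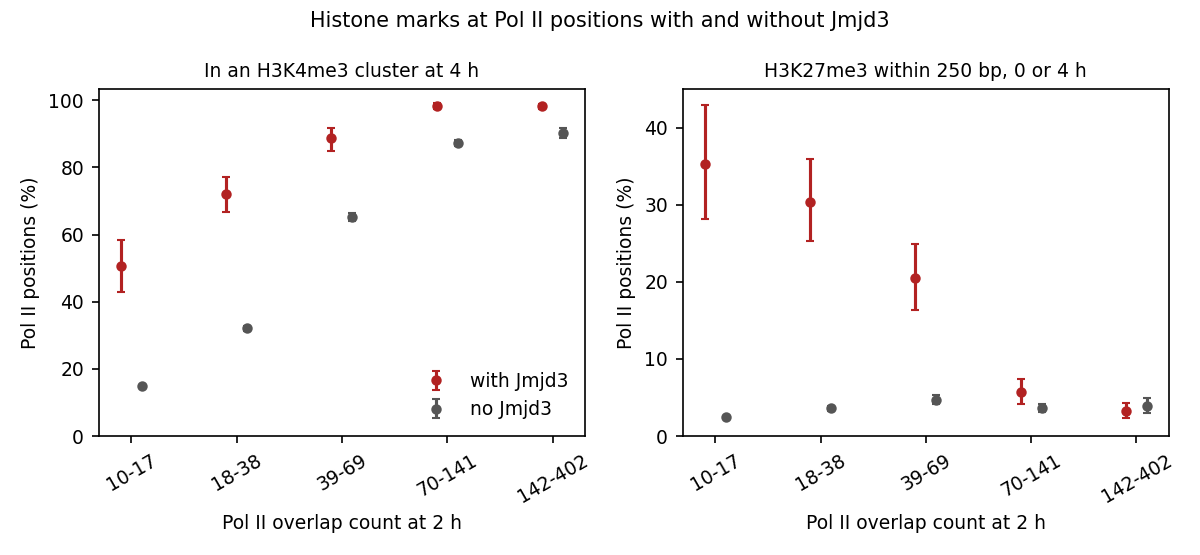
Share of Pol II positions at 2 h (vertical axes, percent) that lay in an H3K4me3 cluster at 4 h (left) or within 250 bp of H3K27me3 at 0 or 4 h (right), in 5 bands of Pol II overlap count, with Jmjd3 within 250 bp and without. Points are shares and bars exact 95% intervals. H3K27me3 was at 35.3% of positions with Jmjd3 and 2.46% of those without at counts of 10 to 17.

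The same Jmjd3 positions were then set beside Pol II of the other times. Pol II was within 250 bp of 54.0% (52.5 to 55.4) of Jmjd3 positions in untreated cells, 66.8% at 2 h and 65.4% (63.9 to 66.8) at 4 h, and the median distance was 199, 117 and 121.5 bp. Up to the last Pol II position of untreated cells on each chromosome, 4282 Jmjd3 positions, these shares were 55.4%, 66.7% and 65.4%. The share of the top Pol II class with Jmjd3 was 27.2% (25.5 to 28.9) in untreated cells, for counts of 69 to 351, 43.8% at 2 h and 40.03% (38.2 to 41.9) at 4 h, for counts of 123 to 401. The depth of the lists was unknown, so these are shares within each list. The nearest of all Pol II positions was one of untreated cells for 1166 Jmjd3 positions, of 2 h for 1557 and of 4 h for 1559, with 116 ties.

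Jmjd3 counts ranked more like Pol II counts of stimulated cells than like those of untreated cells. Pol II was within 250 bp at all 3 times for 2063 Jmjd3 positions. Over these, the rank correlation between Jmjd3 and Pol II count was 0.05 in untreated cells, 0.33 at 2 h and 0.27 at 4 h. Over the 1869 of them without H3K27me3 it was 0.13, 0.50 and 0.43. Over the 194 with H3K27me3 it was 0.08, -0.13 and -0.11, so the order did not hold there. Between Pol II libraries at the 2063 positions it was 0.65 from 2 h to 0 h and 0.90 from 2 h to 4 h.

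Split by both times, tall Jmjd3 positions were most frequent where Pol II was in the highest group at 2 h and in the lower groups before. Among the 2063 positions, those in the highest quartile group of Pol II at 2 h (counts of 201 to 402) had a Jmjd3 count of 14 or more in 72.5% (56.1 to 85.4) of the 40 cases in the lowest quartile group of untreated cells (counts of 9 to 29). The share was 74.5% (61.0 to 85.3) of 55 in the second group, 46.0% (36.6 to 55.6) of 113 in the third and 47.4% (41.7 to 53.1) of 306 in the highest (83 to 331). At Pol II counts of 144 to 200 at 2 h, the shares were 55.1% (40.2 to 69.3) of 49, 24.8% (17.4 to 33.5) of 121, 16.02% (11.3 to 21.8) of 206 and 11.6% (6.88 to 17.9) of 147, from the lowest to the highest quartile group of untreated cells. Where Pol II was in the lowest quartile group at both times, 23.5% (18.8 to 28.7) of 298 had such a Jmjd3 count, and 5.94% (3.11 to 10.1) of the 202 among them without H3K27me3. The rank correlation between Jmjd3 count and the gain in Pol II rank from 0 to 2 h was 0.31 over all 2063, -0.29 over the 194 with H3K27me3 and 0.40 over the 1869 without it.

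**Figure D5:**
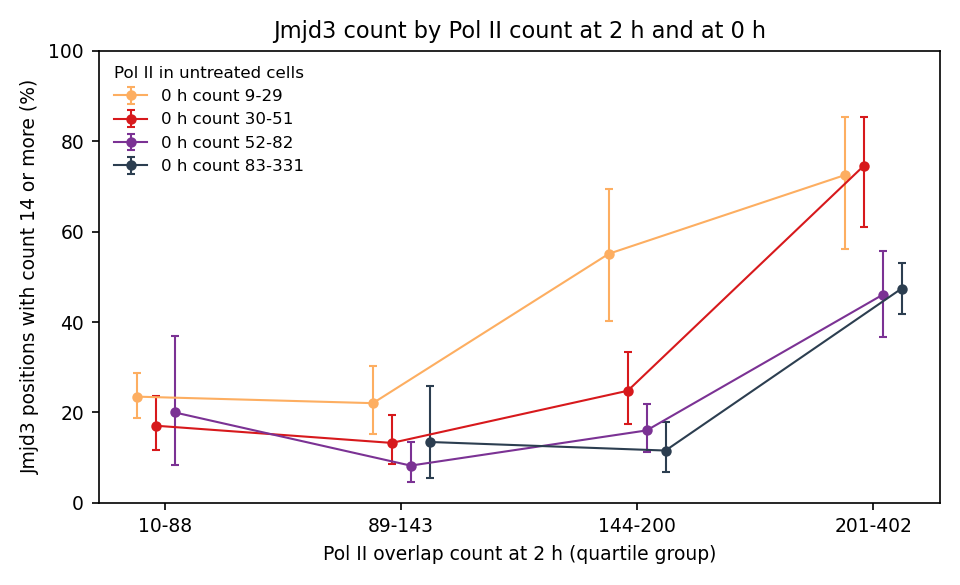
Share of Jmjd3 positions with an overlap count of 14 or more (vertical axis, percent) by quartile group of Pol II count at 2 h (horizontal axis), with 1 line for each quartile group of Pol II count in untreated cells, over the 2063 Jmjd3 positions with Pol II at 0, 2 and 4 h; bars are exact 95% intervals, and a combination of 8 positions is not drawn. In the highest group at 2 h the share is 72.5% for the lowest quartile group of untreated cells and 47.4% for the highest.

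Jmjd3 positions more than 5 kb from Pol II were low, and most were in none of the other lists. A nearest Pol II position 251 to 1000 bp away was found for 970 Jmjd3 positions (22.1%), with a median Pol II count of 102 against 123 within 250 bp, and 87.6% (85.4 to 89.6) of them were in an H3K4me3 cluster at 4 h, against 91.7% (90.6 to 92.7) of the pairs. At 1001 to 5000 bp there were 179 (4.07%), with a median Pol II count of 19 and 40.8% (33.5 to 48.4) in H3K4me3. No Pol II lay within 5 kb of 310 (7.05%, 6.31 to 7.85), of which 61.9% were at the lowest Jmjd3 count of 9, against 27.3% of the pairs. Of the 310, 22.3% (17.8 to 27.3) were in an H3K4me3 cluster at 4 h, 15.2% (11.4 to 19.6) were at H3K27me3 at 4 h and 60% (54.3 to 65.5) were in none of the 7 other lists. H3K27me3 at 4 h was at 8.47% (7.49 to 9.54) of the pairs. H3K27me3 of untreated cells was about equal, at 10% (6.90 to 13.9) of the 310 and 9.32% (8.30 to 10.4) of the pairs. Pol II at 2 h, 1 of the 7 lists, is absent by definition beyond 250 bp. The share in none of the 7 was 6.19% at 251 to 1000 bp and 43.6% at 1001 to 5000 bp.

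The tallest Jmjd3 position without Pol II at 2 h within 5 kb was 98177608 on chromosome 16, with a count of 18. It was in H3K4me3 clusters at both times, at H3K27me3 of untreated cells and at Pol II at 4 h, and its nearest Pol II position at 2 h was 10.1 kb away. Position 8319311 on chromosome 19 (count 15) was in H3K4me3 and at H3K27me3 at both times. The other 3, at 57768473 of chromosome 19 (count 16), 49232919 of chromosome 13 (15) and 138115330 of chromosome 5 (15), were in none of the 7 lists.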

How the data were processed

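The chromatin immunoprecipitation libraries came as 1 peak list each. The signal values are whole-number overlap counts that the authors made for each peak, per the file headers, which neither define them nor name a scaling by depth or control. The build is mm8, per the submitters' processing notes. How reads were aligned and peaks called, and at what threshold, is not given in the sources used here. Per the labels' protocols each library had over 10000000 uniquely mapped tags. Exact depths are unknown, so counts were ranked or classed within their own list.

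Each position was matched to the nearest position of the other list, and positions within 250 bp were called a pair. Pol II classes were bounded by the 5% quantiles of the count, with equal counts in 1 class. H3K27me3 and Pol II of other times counted as listed within 250 bp, and H3K4me3 where the position lay inside a cluster. Shares have exact Clopper-Pearson intervals and medians binomial order-statistic intervals, both at 95%. These cover counting error only, and neighbouring positions are not independent. With 1 library per group there was no test.

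The libraries compared and the positions named were chosen with earlier results of these data known. Named were the 10 tallest positions of each list and the 5 tallest Pol II positions without Jmjd3, each 1 per 20 kb, the 5 tallest Jmjd3 positions without Pol II, and the 5 loci with most Jmjd3 positions, to which a sixth of equal number was added. Groupings by H3K27me3, the split of the highest Pol II class, the quartile groups by time and removal of the largest locus were chosen after seeing the data. Genes and sequences were not used here, because the gene table supplied follows GRCm38.p6. Pairing recovered 400 of 400 planted pairs in simulated lists, and bedtools 2.31.1 gave identical overlap numbers for all 7 other lists. The scripts ran in Python 3.11.15 with scipy 1.17.1, numpy 2.4.6, matplotlib 3.10.9 and pandas 2.3.3.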

Additional observations from a re-analysis of the deposited data

How the results depend on the processing

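No paired analysis was possible because each antibody and time was 1 library and no result comes from a test. Of 58 alternative values, 30 stayed within the interval of the reported value and 28 moved outside it. Of the 10 that are correlations, the values that could change sign, 0 did. Under other pair distances, the share of Jmjd3 positions with Pol II was 45.4% at 100 bp, 80.8% at 500 bp and 88.9% at 1000 bp, and the share of Pol II positions with Jmjd3 was 3.49%, 6.25% and 7.77%. The share of the highest Pol II class with Jmjd3 was 31.8% at 100 bp, 55.05% at 1000 bp, 31.3% for the top of 10 classes and 56.8% for the top of 40, and that of the lowest class was 0.209% at 100 bp and 0.837% at 1000 bp. The Pol II position nearest to Jmjd3 was the tallest for 91.2% within 1 kb and 73.2% within 5 kb. These shares include windows with 1 Pol II position, where it is the tallest by definition. Where at least 2 lay in the window, the shares were 66.4% of 1024 within 1 kb and 62.3% of 2907 within 5 kb. With the Pol II list cut to the length of the Jmjd3 list, both shares were 35.7% and the median distance 1465.5 bp, by construction larger since fewer positions are left. Above the median count of each list, the shares were 71.3% of Jmjd3 and 5.33% of Pol II, the median distance was 100 bp, the rank correlation was 0.17 and the lowest class had 0.602%; the cause was not tested. The correlation was 0.16 as Pearson's of log2 counts, and the rank correlation was 0.36 without Jmjd3 positions in all 7 other lists, 0.35 without the largest locus and 0.44 without those at H3K27me3, the last 2 added after seeing the data. Without positions in all 7 other lists 4.93% of Pol II positions had Jmjd3, and without those at H3K27me3 4.57%, since fewer Jmjd3 positions remain. Autosomes alone gave values within the reported intervals for all 7 results. Jmjd3 counts close to the lowest of 9 limit what can be ranked: 32.4% of positions are tied there, and sites below it are not in the list.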

Other observations

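Pol II positions at 2 h under 1 kb apart were also joined into 45427 tracts, of which 3346 (7.37%) held a Jmjd3 position within 500 bp of their ends or inside. Tract length alone went with little difference: Jmjd3 was at 7.10% (6.84 to 7.36) of tracts of 1 position, 8.73% (8.04 to 9.46) of tracts of 2, 8.26% (7.09 to 9.55) of tracts of 3 to 4 and 6.72% (3.96 to 10.5) of tracts of 5 to 9. Among tracts whose tallest position had a count of 142 to 402, Jmjd3 was at 49.8% (47.6 to 51.9) of 2201 tracts of 1 position, 64.7% (59.4 to 69.8) of 343 of 2 positions and 68.4% (59.1 to 76.8) of 114 of 3 to 4. Among tracts with a tallest count of 10 to 38 it was at 1.53% (1.38 to 1.68), 1.98% (1.59 to 2.43) and 1.85% (1.22 to 2.68). Longer tracts cover more sequence, and the part of this was not tested.

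The median of the tallest paired Pol II count was 124 at loci of 1 Jmjd3 position with a pair, 157 at loci of 2, 185 at loci of 3 to 4 and 278 at the 40 loci of 5 to 66. More Jmjd3 positions give more chances for a tall partner, which was not tested. A Pol II pair was present at 68.9% of the 2890 loci of 1 position, 88.7% of the 372 of 2, 91.7% of the 132 of 3 to 4 and all 40 of the largest, which again grows with the number of positions. Counted over Jmjd3 positions and not loci, the share with a pair did not go up with locus size, at 68.9%, 64.4%, 58.5% and 65.5%.

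Across 20 chromosomes, the share of Jmjd3 positions with a Pol II pair lay between 60.8% on chromosome 16 and 76.0% on chromosome 18. The share of Pol II positions with Jmjd3 lay between 3.98% (2.86 to 5.38) on chromosome X and 6.68% (6.02 to 7.39) on chromosome 11, which also held the locus of 66 Jmjd3 positions.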
